A study of Rattus norvegicus with 12 samples.

Results

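The 10 genes described here encode repressors and output factors of the circadian clock: the period genes Per1, Per2 and Per3, the nuclear receptors Nr1d1 and Nr1d2, the PAR bZIP factors Dbp, Tef and Hlf, and the bHLH repressors Bhlhe41 and Bhlhe40. They were chosen by name, with earlier results of these data known. Every probe set (a group of short array probes read out as 1 value) whose only gene symbol in the platform annotation is one of these was taken. That gave 19 probe sets of the 31042 on the arrays. A filter on low mean signal kept 18625 probe sets for testing, 16 of them for these genes, and each of the 10 genes, of 10421 tested, kept at least 1.

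The mammalian clock is a loop of transcription in which the activators Clock and Bmal1 switch on their own repressors through E-box sequences. The period proteins shut the activators off, the nuclear receptors Nr1d1 and Nr1d2 (Rev-erb alpha and beta) repress the Bmal1 gene, and Bhlhe40 and Bhlhe41 (Dec1 and Dec2) compete at E-boxes. Dbp, Tef and Hlf carry the rhythm to target genes through D-box sequences, and in skeletal muscle such outputs include genes of metabolism.

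The muscle profiled was the gastrocnemius of the calf, from male Wistar-Hannover rats that had all had their left sciatic nerve severed. Nandrolone is an anabolic steroid that acts through the androgen receptor. The 4 groups of 3 rats were nandrolone given from day 29 with muscle taken at day 35, vehicle given from day 29 with muscle taken at day 35, nandrolone given from day 0 with muscle taken at day 7, and vehicle given from day 0 with muscle taken at day 7. Dosing lasted 7 days in each group, and every sample came from the denervated limb, so day 35 was set against day 7 after nerve section and not against innervated muscle. Time after surgery and the day on which dosing began changed together and cannot be told apart. The hour of day at which muscle was taken is not given in the sources used here. Transcripts of these genes cycle over the day, so if the hour differed between the days of collection, its part and that of time after surgery in every difference between day 35 and day 7 cannot be told apart. Samples are numbered replicates in the labels, and p-values measure the spread between these samples. Values are normalised log2 units: 16 was added to the deposited signal, log2 was taken and the arrays were quantile normalised. Changes are differences of these values, so the fold of a dim probe set is understated. In whole muscle, fewer cells of a type and less RNA per cell cannot be told apart.

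All 7 tested skeletal muscle markers of 8 listed were bright on every array, the lowest value being 13.1 log2. Median deposited signals of the arrays ran from 44.8 to 111, the highest being nandrolone day 35 replicate 3, ahead of 63.5 for the next. That array also correlated least with its group. Its mean correlation, over all probe sets except controls, was 0.937, against 0.95 to 0.975 for the other arrays. The ratio of 3' to 5' actin signal, a sign of RNA integrity, was 1.9 to 2.57 under nandrolone and 2.68 to 3.71 under vehicle at day 35, and 2.08 to 2.79 under nandrolone and 2.11 to 2.81 under vehicle at day 7.

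Most of these genes stood higher at day 35 than at day 7 after nerve section. Averaged over the treatments, 8 of the 16 tested probe sets rose and none fell (limma, p-values adjusted over the whole tested table by Benjamini and Hochberg, threshold 0.05), where 6.49% of all tested probe sets rose. The 8 belong to 7 genes: Per2, Per3, Nr1d2 with 2 probe sets, Dbp, Tef, Hlf and Bhlhe41. Per1, Nr1d1 and Bhlhe40 did not pass. The median change of the 16 probe sets was 0.72 on the log2 scale, against -0.01 over all probe sets tested, and 15 of the 16 were above 0, against 49% of all. In 7 of the 16 every day 35 array lay above every day 7 array, as in 3.19% of all tested probe sets. Since the members were chosen with earlier results of these data known, their excess over all probe sets is no independent evidence. No member passed for nandrolone against vehicle at either day.

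**Figure D1:**
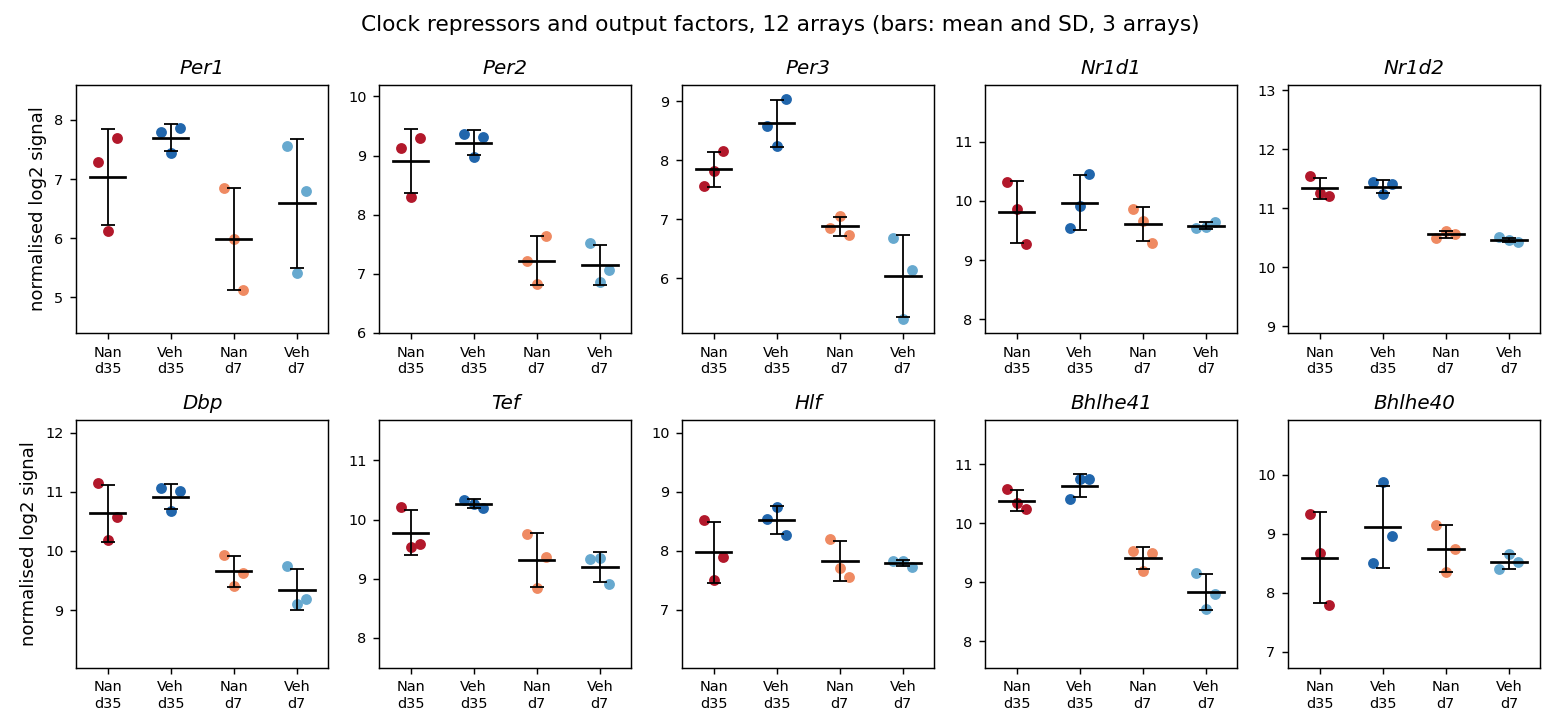
Normalised log2 signal (vertical axis, the same span of log2 units in each panel) of each gene's brightest tested probe set on the 12 arrays, in the 4 groups of nandrolone (Nan) or vehicle (Veh) at day 35 (d35) or day 7 (d7). Points are arrays, and bars are the mean and SD of 3 arrays. The day 35 arrays of Per2, Per3, Nr1d2, Dbp and Bhlhe41 all sit above their day 7 arrays, while those of Per1, Nr1d1, Tef, Hlf and Bhlhe40 overlap.

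Among the period genes, Per2 had the largest change averaged over treatments and under nandrolone, and Per3 the largest under vehicle. Per2 encodes a partner of the cryptochromes in the complex that shuts off Clock and Bmal1. It read 9.13, 8.30 and 9.30 in nandrolone muscle at day 35, against 7.21, 6.82 and 7.64 in nandrolone muscle at day 7. In vehicle muscle it read 9.37, 8.98 and 9.31 at day 35, against 7.52, 6.85 and 7.07 at day 7. Within each treatment the days did not overlap. Per2 rose by 1.68 ± 0.29 (log2 ± SE) under nandrolone (limma, adjusted p = 0.0336) and by 2.07 ± 0.29 under vehicle (limma, adjusted p = 0.00382). Averaged over treatments the change was 3.67-fold with a 95% interval of 2.70 to 4.99 (limma, adjusted p = 0.000389), the 13th largest rise of all tested probe sets. A second Per2 probe set had a mean of 4.64 log2, below the filter at 5.56, and was not tested.

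Per3, a period protein with a smaller part in keeping the rhythm in mice, read 7.56, 7.81 and 8.16 in nandrolone muscle at day 35, against 6.85, 7.06 and 6.73 in nandrolone muscle at day 7. With vehicle it read 8.59, 8.24 and 9.04 at day 35, against 6.69, 5.31 and 6.14 at day 7. Again neither treatment's days overlapped, and the vehicle groups stood outside the nandrolone groups at both ends. The change under nandrolone was 0.97 ± 0.32, or 1.95-fold with a 95% interval of 1.21 to 3.14, and did not pass (limma, adjusted p = 0.193). Under vehicle Per3 rose by 2.58 ± 0.32, or 5.98-fold with an interval of 3.71 to 9.62 (limma, adjusted p = 0.00192). Averaged over treatments Per3 rose by 1.77 ± 0.22 (limma, adjusted p = 0.000854). The dimmer Per3 probe set had a mean of 5.24, the nearest of the members' untested probe sets to the filter.

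Per1, the period gene that responds fastest to light and to glucocorticoids, was the least even across arrays. Its values were 7.29, 6.12 and 7.69 in nandrolone muscle at day 35, against 6.85, 5.99 and 5.13 in nandrolone muscle at day 7. In vehicle muscle they were 7.80, 7.44 and 7.86 at day 35, against 7.56, 5.41 and 6.80 at day 7. Both pairs overlapped. The average change of 1.08 ± 0.39 was 2.11-fold with an interval of 1.18 to 3.77, and it did not pass (limma, adjusted p = 0.0881). It passed in 2 of 20 alternatives, with the replicate number as a block (limma, adjusted p = 0.0441) and without nandrolone day 35 replicate 2 (limma, adjusted p = 0.0408). In the others it did not pass, with an adjusted p of up to 0.189 (limma). The block also covers the vehicle groups, whose same-numbered arrays did not all correlate over 0.1 between the days. The SD of its arrays around their group means was 0.81 log2, larger than for 97.9% of tested probe sets.

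The start of the rat Per2 gene holds a D-box and an E'-box, the element types through which Dbp, Tef and Hlf and the Clock and Bmal1 pair act. The window shown runs from 250 bases before to 50 bases after the RefSeq start in the GRCr8 build, on the minus strand of chr9:99496944-99497243, with both motifs in capitals. It is shown as the only member window in which a D-box was found, and whether the motifs go with a change was not tested.
Per2: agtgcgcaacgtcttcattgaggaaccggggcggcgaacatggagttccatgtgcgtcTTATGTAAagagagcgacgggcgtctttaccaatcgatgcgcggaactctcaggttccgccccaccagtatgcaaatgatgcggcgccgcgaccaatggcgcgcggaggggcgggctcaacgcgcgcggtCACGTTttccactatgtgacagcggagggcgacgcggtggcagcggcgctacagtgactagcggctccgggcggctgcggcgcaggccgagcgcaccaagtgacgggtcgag
The D-box TTATGTAA lies 192 to 185 bases before the start and the E'-box CACGTT 62 to 57 bases before it. Windows of 9 of the 10 genes were found in the RefSeq table, 10 windows in all since Nr1d1 has a pair. On either strand the D-box, as TTATGTAA or TTACGTAA, was in 1.01% of 33469 windows of the same length and, of these genes, in Per2. The E'-box CACGTT was in 4.83% of windows and in Per2 and Nr1d1, and the E-box CACGTG was in 6.42% and in Nr1d1, Tef, Bhlhe41 and Bhlhe40. Neither the RORE core (TAGGTCA or TGGGTCA, 6.6% of windows) nor the CRE TGACGTCA (1.83%) was found in a member's window. The windows of Per1, Per3, Nr1d2 and Dbp held none of these motifs, and of these genes all but Per1 rose on average. A match is a run of letters and not a site shown to be bound.

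The Rev-erb pair differed in how far it could be told from the spread. Nr1d2 encodes Rev-erb beta, a heme-binding repressor, and its brightest probe set was the steadiest of all members, with an SD around group means of 0.11 log2, which only 2.14% of tested probe sets undercut. It read 11.54, 11.25 and 11.21 in nandrolone muscle at day 35, against 10.49, 10.62 and 10.57 in nandrolone muscle at day 7. The vehicle rats read 11.44, 11.23 and 11.42 at day 35, against 10.51, 10.46 and 10.43 at day 7. A gap wider than the range within any group separated the days. Nr1d2 rose by 0.78 ± 0.13 under nandrolone (limma, adjusted p = 0.0324) and by 0.90 ± 0.13 under vehicle (limma, adjusted p = 0.00458), and the average was 1.79-fold with an interval of 1.55 to 2.05 (limma, adjusted p = 0.000425). A second probe set, 1370541_at, read 10.88, 10.47 and 10.35 under nandrolone and 10.36, 10.40 and 10.10 under vehicle at day 35. At day 7 it read 9.44, 9.96 and 9.85 under nandrolone and 9.59, 9.77 and 9.78 under vehicle. It rose by 0.70 ± 0.13 on average (limma, adjusted p = 0.0061). The dimmest, 1370540_at, had a change of -0.01 ± 0.31, with an interval from -0.68 to 0.65 that takes in the low end of the other probe sets' intervals.

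Nr1d1, which encodes Rev-erb alpha, read 10.32, 9.87 and 9.27 in nandrolone muscle at day 35, against 9.87, 9.66 and 9.29 in nandrolone muscle at day 7. In vehicle muscle it read 9.54, 9.92 and 10.46 at day 35, against 9.54, 9.56 and 9.65 at day 7. The days overlapped under both treatments, and day 35 was spread more widely than day 7. The average change of 0.30 ± 0.20 had an interval from -0.12 to 0.72 and did not pass (limma, adjusted p = 0.34). Within an array, Nr1d2 minus Nr1d1 was on average 0.57 higher at day 35 than at day 7 under nandrolone and 0.51 higher under vehicle, with overlapping arrays in both, so a difference between the pair was not resolved. The Nr1d1 window on the minus strand of chr10:84231763-84232062 is given as the counterpart of the Per2 window, since it also holds the E'-box, here read on the opposite strand as AACGTG and set in capitals, 174 to 169 bases before the start.
Nr1d1: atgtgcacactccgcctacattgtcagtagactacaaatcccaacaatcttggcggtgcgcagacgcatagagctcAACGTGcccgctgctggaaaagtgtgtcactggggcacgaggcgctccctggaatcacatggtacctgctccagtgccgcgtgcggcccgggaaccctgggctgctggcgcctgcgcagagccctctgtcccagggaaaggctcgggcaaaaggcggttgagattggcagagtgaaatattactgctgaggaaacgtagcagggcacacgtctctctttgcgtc
Whether these letters go with a change was not tested.

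Of the PAR bZIP activators, Dbp changed most. Dbp, a direct target of Clock and Bmal1, read 11.14, 10.19 and 10.57 in nandrolone muscle at day 35, against 9.93, 9.41 and 9.62 in nandrolone muscle at day 7. The vehicle arrays read 11.06, 10.67 and 11.01 at day 35, against 9.75, 9.10 and 9.19 at day 7. All day 35 arrays lay above all day 7 arrays. Under nandrolone the change was 0.98 ± 0.25 and did not pass (limma, adjusted p = 0.105), but with the replicate number as a block it did (limma, adjusted p = 0.0245). Under vehicle Dbp rose by 1.57 ± 0.25, or 2.97-fold with an interval of 2.03 to 4.33 (limma, adjusted p = 0.00719). The average rise was 1.28 ± 0.18 (limma, adjusted p = 0.00141).

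Tef, the relative of Dbp, read 10.22, 9.54 and 9.58 in nandrolone muscle at day 35, against 9.75, 8.84 and 9.37 in nandrolone muscle at day 7, on its brightest probe set. With vehicle it read 10.34, 10.27 and 10.19 at day 35, against 9.33, 9.35 and 8.90 at day 7. The days overlapped under nandrolone and were apart under vehicle. The change under nandrolone was 0.46 ± 0.24 and did not pass (limma, adjusted p = 0.415). Tef rose by 1.07 ± 0.24 under vehicle (limma, adjusted p = 0.0274) and by 0.76 ± 0.17 on average (limma, adjusted p = 0.0146). The vehicle call was lost on leaving out any 1 of the 6 vehicle arrays, with an adjusted p of up to 0.124. Its 2 dimmer probe sets, 1369919_at and 1385374_at, had average changes of 0.33 ± 0.25 and 0.14 ± 0.14 and did not pass. The second of these, with a mean of 6.32 log2, was the dimmest member probe set tested.

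Hlf, the third PAR bZIP factor, gave less even readings. Its brightest probe set, 1385585_at, read 8.52, 7.50 and 7.90 in nandrolone muscle at day 35, against 8.21, 7.70 and 7.56 in nandrolone muscle at day 7. The vehicle rats gave 8.54, 8.74 and 8.27 at day 35, against 7.83, 7.83 and 7.73 at day 7. The nandrolone arrays overlapped between the days and the vehicle arrays did not, and the average change of 0.43 ± 0.18 did not pass (limma, adjusted p = 0.133). A dimmer probe set, 1374709_at, read 7.75, 6.89 and 7.01 under nandrolone and 7.31, 7.63 and 7.01 under vehicle at day 35. At day 7 it read 6.81, 6.31 and 6.19 under nandrolone and 6.59, 6.57 and 6.69 under vehicle. It rose by 0.74 ± 0.18 on average (limma, adjusted p = 0.0211), while 1386641_at stood at 0.48 ± 0.23 and did not pass. The fourth, 1384811_at, with a mean of 4.56 log2, was below the filter. With no filter it was lower at day 35, at -0.68 ± 0.15 (limma, adjusted p = 0.0168), opposite to the other 3, on deposited signals of 0.4 to 23.9. Within an array, Dbp minus Hlf was higher at day 35 than at day 7 by 0.84 under nandrolone and 0.85 under vehicle. The difference ran from 2.63 to 2.70 at day 35 and from 1.70 to 2.06 at day 7 under nandrolone, and from 1.93 to 2.74 at day 35 and from 1.28 to 1.93 at day 7 under vehicle, where the ranges all but touch. With Hlf 1374709_at in place of the brightest probe set the vehicle arrays overlapped, and whether Dbp and Hlf differ was not tested.

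The Tef window holds the canonical E-box CACGTG, 198 to 193 bases before the start on the plus strand of chr7:115206577-115206876. It is set beside that of Bhlhe41, where the same 6 letters lie 48 to 43 bases before the start on the minus strand of chr4:180569306-180569605. Capitals mark the E-box.
Tef: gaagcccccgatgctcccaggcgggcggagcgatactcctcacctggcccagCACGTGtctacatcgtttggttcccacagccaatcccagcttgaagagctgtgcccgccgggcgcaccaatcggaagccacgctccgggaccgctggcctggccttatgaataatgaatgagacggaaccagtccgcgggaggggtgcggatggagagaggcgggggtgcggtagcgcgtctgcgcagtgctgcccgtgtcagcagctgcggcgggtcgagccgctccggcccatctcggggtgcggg
Bhlhe41: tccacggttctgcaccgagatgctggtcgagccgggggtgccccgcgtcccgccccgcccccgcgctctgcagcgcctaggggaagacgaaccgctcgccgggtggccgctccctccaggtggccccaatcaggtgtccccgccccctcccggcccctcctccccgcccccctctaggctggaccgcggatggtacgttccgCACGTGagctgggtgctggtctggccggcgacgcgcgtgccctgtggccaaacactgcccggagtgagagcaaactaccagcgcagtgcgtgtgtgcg
Bhlhe40 holds CACGTG as well, 220 to 215 bases before its start, and so does a window of Nr1d1, 191 to 186 bases before the start. Neither of these genes passed for time. Tef and Bhlhe41 rose under vehicle, and so did Per2, Per3, Nr1d2 and Dbp, whose windows hold no CACGTG. Whether the E-box goes with a change was not tested.

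Bhlhe41 and Bhlhe40 are close relatives that both bind E-boxes, and their readings over time are given side by side. Bhlhe41 read 10.58, 10.34 and 10.23 in nandrolone muscle at day 35, against 9.53, 9.20 and 9.50 in nandrolone muscle at day 7. The vehicle arrays gave 10.41, 10.75 and 10.75 at day 35, against 9.15, 8.55 and 8.80 at day 7. Day 35 lay wholly above day 7 under both treatments. Bhlhe41 rose by 0.97 ± 0.19 under nandrolone (limma, adjusted p = 0.0416) and by 1.80 ± 0.19 under vehicle (limma, adjusted p = 0.00133). Its average rise of 2.62-fold, with an interval of 2.14 to 3.20, had the smallest adjusted p of the members (limma, adjusted p = 0.0002).

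Bhlhe40, which also answers to hypoxia and to many hormones, read 9.34, 8.67 and 7.79 in nandrolone muscle at day 35, against 9.16, 8.35 and 8.74 in nandrolone muscle at day 7. In vehicle muscle it read 8.50, 9.87 and 8.97 at day 35, against 8.40, 8.65 and 8.53 at day 7. The days overlapped under both treatments, and the average change was 0.22 ± 0.27, with an interval from -0.38 to 0.81 (limma, adjusted p = 0.642). Within an array, Bhlhe41 minus Bhlhe40 was higher at day 35 than at day 7 by 1.12 under nandrolone and 1.21 under vehicle. In neither treatment did the arrays of that difference overlap: it ran from 1.24 to 2.45 at day 35 and from 0.38 to 0.84 at day 7 under nandrolone, and from 0.88 to 1.90 at day 35 and from -0.10 to 0.75 at day 7 under vehicle. Of the pairs not given above, Per2 minus Per1, Per3 minus Per1 and Tef minus Hlf separated under vehicle only, and Dbp minus Tef under nandrolone only. How often such differences separate among other genes was not counted.

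**Figure D2:**
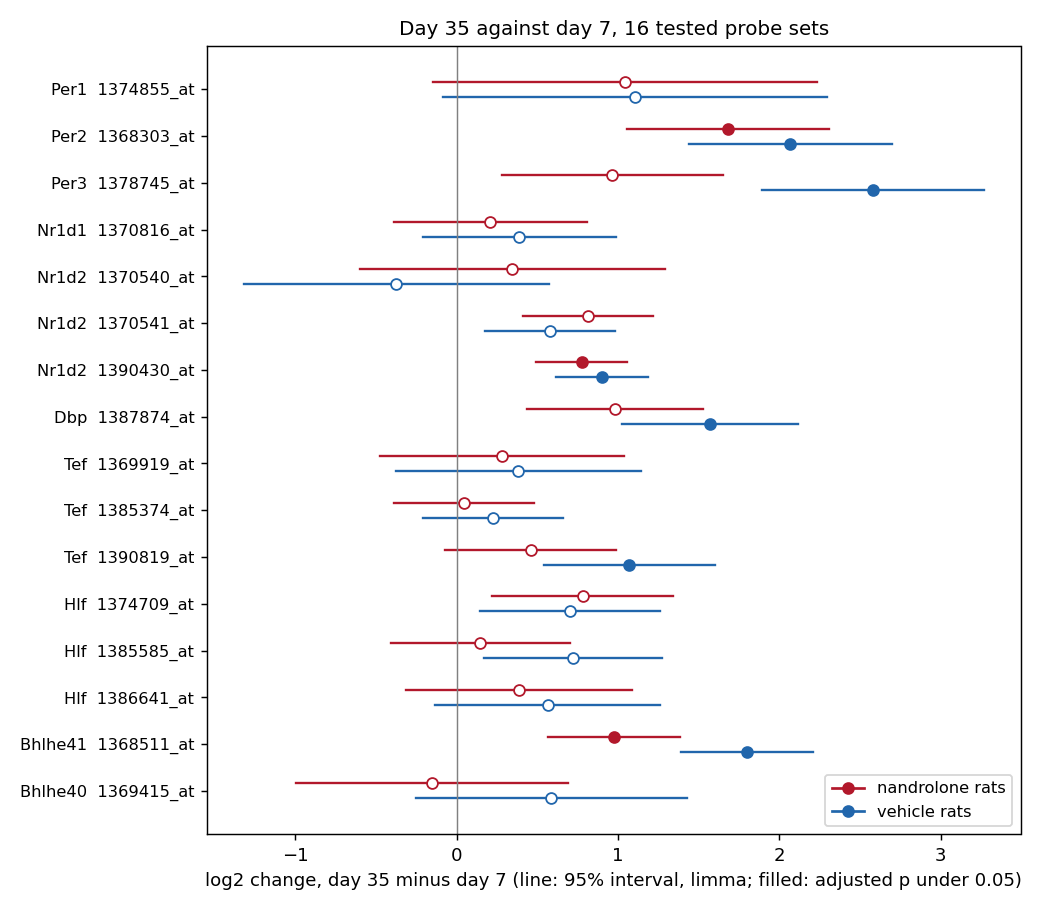
Day 35 minus day 7 on the log2 scale (horizontal axis) for the 16 tested probe sets, in nandrolone rats (upper line of each pair) and vehicle rats (lower line). Points are limma estimates with 95% intervals, and filled points passed an adjusted p of 0.05. Filled points are 3 under nandrolone and 6 under vehicle, and 15 of 16 points lie above 0 under each treatment. Of all tested probe sets 48.9% were above 0 under nandrolone and 49.6% under vehicle.

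The 2 treatments can be set side by side for time. Under nandrolone 3 of the 16 probe sets rose (Per2, Nr1d2 and Bhlhe41), where 0.274% of all tested probe sets did, and 7 had every day 35 array above every day 7 array, against 7.28% of all. Under vehicle 6 rose (Per2, Per3, Nr1d2, Dbp, Tef and Bhlhe41), where 3.44% of all did, and 9 separated upward, against 18.5% of all. Median changes of the 16 were 0.62 under nandrolone and 0.71 under vehicle, against -0.01 and 0.00 over all tested probe sets. The 3 nandrolone calls rested on few arrays: none of the 16 passed without nandrolone day 35 replicate 1, without nandrolone day 7 replicate 1 or without nandrolone day 7 replicate 2, 1 passed without nandrolone day 7 replicate 3, and none passed on the deposited scale without quantile normalisation or when the 2 nandrolone groups were fitted alone. Calls over the whole table fell away in the same fits, to 11, 0, 0, 51, 15 and 0 in that order, against 126. The changes of the members themselves stayed between 1.42 and 1.99 for Per2, 0.54 and 0.85 for Nr1d2 and 0.82 and 1.09 for Bhlhe41 over all 16 alternatives. With the replicate number as a block, adjusted p under nandrolone was 0.0145 for Per2, 0.0364 for Nr1d2 and 0.0477 for Bhlhe41 (limma). Dbp passed too (limma, adjusted p = 0.0245), while Per3 (limma, adjusted p = 0.171), Tef (limma, adjusted p = 0.3) and the remaining member probe sets did not. A gene that passed under one treatment and not the other is not thereby shown to differ between them.

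That difference was tested as an interaction, the change with time under nandrolone minus that under vehicle. None of the 18625 tested probe sets passed (limma, 0% called), and 745 of all and 2 of the 16 had an unadjusted p under 0.05. For Per3 the interaction was -1.61 ± 0.45 (limma, adjusted p = 0.928) and for Bhlhe41 -0.83 ± 0.27 (limma, adjusted p = 0.928). The 16 probe sets had a median interaction of -0.18, against -0.03 over all tested probe sets, and 3 of the 16 were above 0, against 47.1% of all. Taking the brightest probe set of each of the 10 genes, the median was -0.58 and none was above 0. These genes' values come from the same 12 arrays and are not independent of each other.

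Nandrolone against vehicle gave no call among the members. At day 35, 0% of all tested probe sets passed (limma), and an unadjusted p under 0.05 was reached by 1590 of all and by 2 of the 16. The 2 were Per3, with -0.78 ± 0.32 (limma, adjusted p = 0.562), and Tef 1385374_at, with -0.51 ± 0.20 (limma, adjusted p = 0.562). In both, every nandrolone array at day 35 lay below every vehicle array, as in 7.31% of the tested table. All 10 genes were below 0 on their brightest probe set, with a median of -0.40, and the 16 probe sets had a median of -0.33 against -0.04 over all probe sets. Of the 16 probe sets 2 were above 0, against 45.2% of all tested. The smallest of the 10 was Nr1d2, at -0.03 with an interval from -0.31 to 0.26, and the interval for Per1, from -1.85 to 0.52, shows how little the arrays bound it.

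At day 7, again 0% of all passed (limma), 331 of all and 2 of the 16 having an unadjusted p under 0.05. Per3 stood at 0.83 ± 0.32 and Bhlhe41 at 0.57 ± 0.19 (limma, adjusted p = 1 for both). In each, every nandrolone array lay above every vehicle array, which 3.9% of all tested probe sets did. Tef 1385374_at, at -0.33 ± 0.20 (limma, adjusted p = 1), had every nandrolone array below every vehicle array, as 3.75% of all did. The median of the 16 was 0.03, against 0.00 over all. Averaged over the days, 0% of all passed (limma), with 889 of all and 1 of the 16 under an unadjusted p of 0.05, and the median of the 16 was -0.13 against -0.02. The comparisons with vehicle at each day, over time and the interaction share arrays. Per3 at vehicle day 7, with its low value of 5.31 on replicate 2, enters several of them.

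**Figure D3:**
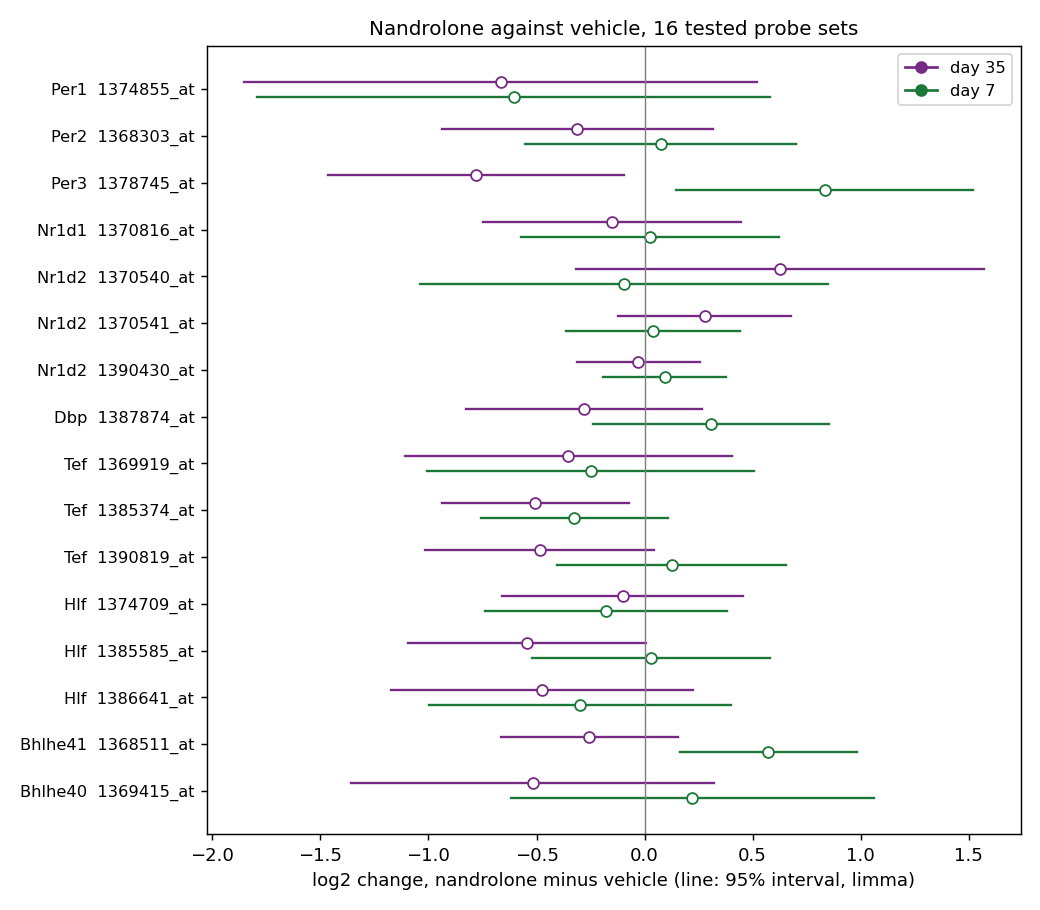
Nandrolone minus vehicle on the log2 scale (horizontal axis) for the 16 tested probe sets at day 35 (upper line of each pair) and at day 7 (lower line). Points are limma estimates with 95% intervals, open because none passed an adjusted p of 0.05. At day 35, 2 of 16 points lie above 0, against 45.2% of all tested probe sets, and at day 7 the intervals of Per3 and Bhlhe41 lie above 0.

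The highest and lowest arrays of a group were counted over the 10 genes, and no other genes were counted for comparison. Nandrolone day 35 replicate 1 held the highest value of its group for 7 of the 10 genes, and replicate 2 the lowest for 5 (Per1, Per2, Dbp, Tef and Hlf) and the highest for none. Nandrolone day 35 replicate 3 was highest for Per1, Per2 and Per3 and lowest for Nr1d1, Nr1d2, Bhlhe41 and Bhlhe40. Vehicle day 35 was mixed: replicates 1 and 3 were each highest for 4 genes, and replicate 2 was highest for 2 and lowest for 5. At day 7, nandrolone replicate 1 was highest for 7 genes. Vehicle day 7 replicate 2 was lowest for Per1, Per2, Per3, Dbp and Bhlhe41, and replicate 1 was highest for 6 genes, those same 5 and Nr1d2. Spread around group means also set the genes apart, at 0.81 for Per1, 0.56 for Bhlhe40 and 0.44 for Per3, against 0.22 for Bhlhe41 and 0.11 for Nr1d2, the median over all tested probe sets being 0.30.

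The other genes of the loop moved both ways. Of 14 other clock genes listed, 9 were tested, and averaged over treatments 1 rose and 3 fell. Of all 18625 tested probe sets, 1208 rose and 1130 fell. Bmal1, the core activator that the Rev-erb receptors repress, read 6.34, 6.68 and 6.12 under nandrolone and 5.21, 6.31 and 5.97 under vehicle at day 35. At day 7 it read 7.33, 7.81 and 7.01 under nandrolone and 7.07, 7.47 and 7.37 under vehicle. All day 35 arrays were below all day 7 arrays, opposite to Per2, Nr1d2 and Dbp, and Bmal1 fell by 1.24 ± 0.21 on the log2 scale (limma, adjusted p = 0.00349). Npas2, which can stand in for Clock, fell by 0.88 ± 0.15 (limma, adjusted p = 0.00335). Cry2, a cryptochrome partner of the period proteins, rose by 0.95 ± 0.16 (limma, adjusted p = 0.00342). Cry1, the other cryptochrome, stood at 0.02 ± 0.15 and did not pass (limma, adjusted p = 0.945). The third gene that fell was Nfil3, a repressor at the D-boxes that Dbp, Tef and Hlf activate, at -1.05 ± 0.26 (limma, adjusted p = 0.0223). Under vehicle Nfil3 changed by -1.78 ± 0.37 (limma, adjusted p = 0.0196) and under nandrolone by -0.33 ± 0.37 (limma, adjusted p = 0.729). Its interaction did not pass (limma, adjusted p = 0.928). Nfil3 and Cry1 were named after their values were seen.

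**Figure D4:**
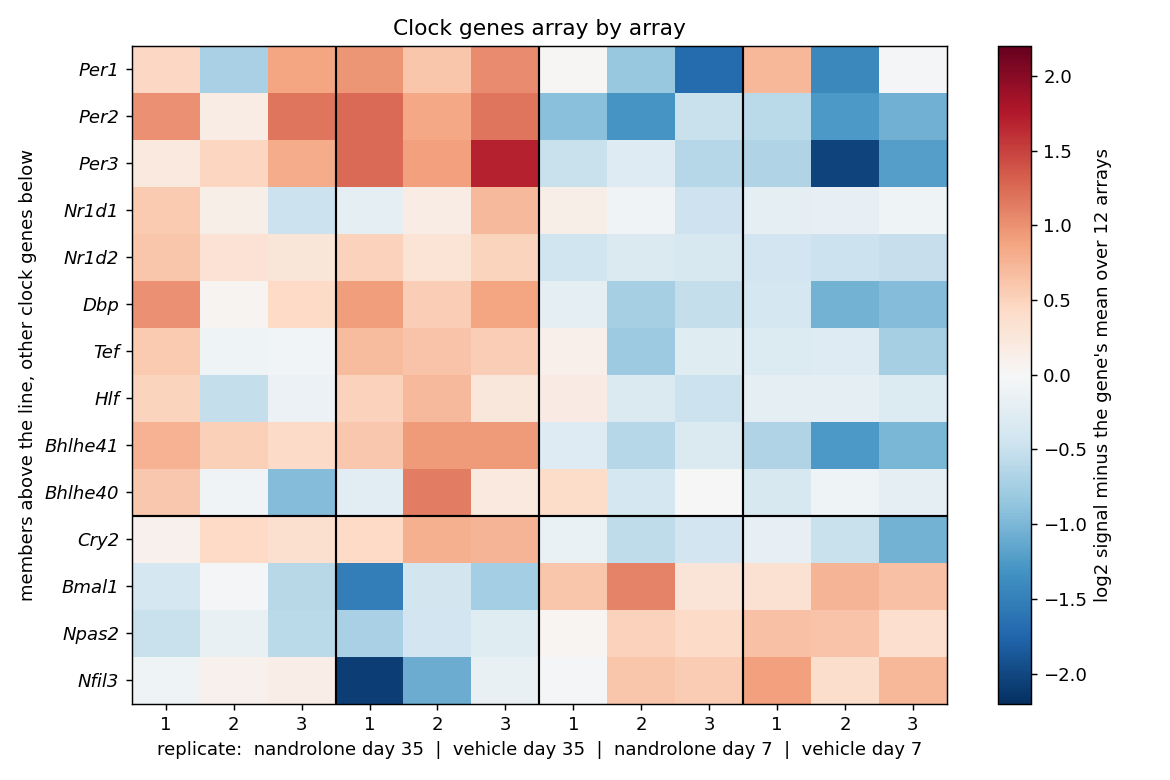
Colour gives each gene's log2 signal minus its own mean over the 12 arrays, with members above the horizontal line and 4 other clock genes below it. Columns are replicates 1 to 3 of the groups named under the axis. Per2, Per3, Nr1d2, Dbp and Bhlhe41 are above their means at day 35 and below them at day 7, and Bmal1 and Npas2 run the other way.

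Among 10 known or likely outputs of the clock, all tested, 4 rose and 1 fell on average. Lpl, which releases fatty acids from circulating lipid, fell by 0.69 ± 0.12 (limma, adjusted p = 0.00478). Myod1, a muscle transcription factor, rose by 0.72 ± 0.15 (limma, adjusted p = 0.00872), and Usp2, a deubiquitinase driven by the clock in several tissues, rose by 0.73 ± 0.19 (limma, adjusted p = 0.0276). Glucocorticoids also act on Per1 and Per2, so their targets were counted: of 9 tested of 10, 5 rose and 1 fell on average. For these targets and the outputs above, the counts over all 18625 tested probe sets were 1208 rising and 1130 falling. Tsc22d3 rose by 0.92 ± 0.17 (limma, adjusted p = 0.00491) and the zinc finger factor Klf9 by 0.81 ± 0.12 (limma, adjusted p = 0.00195). Mt2A, a metallothionein, fell by 1.55 ± 0.28 (limma, adjusted p = 0.00452). Of 7 tested immediate early genes of 8, none passed on average (limma), and 1 had an unadjusted p under 0.05, which was Fos at -1.63 ± 0.65 (limma, adjusted p = 0.117). The median change of the immediate early genes was 0.71 under nandrolone and -1.44 under vehicle, where Fos fell by 3.44 ± 0.91 (limma, adjusted p = 0.0467). The part of these genes in the members' results was not tested.

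Markers of other cells in the muscle were read beside the members, and few of them passed for time. An array's score is the mean of gene-centred log2 values over the tested markers of a list. Schwann cell markers, 4 tested of 7, scored 0.17 to 2.85 under nandrolone and -0.17 to -0.15 under vehicle at day 35. At day 7 they were -0.81 to 0.45 under nandrolone and -0.83 to -0.60 under vehicle. Of the 4, 1 passed on average, Cnp at 1.84 ± 0.20 (limma, adjusted p = 0.000425), and Sox10 was below the filter. Adipocyte markers, 4 tested of 7, scored 0.11 to 3.21 under nandrolone and -0.71 to 0.57 under vehicle at day 35, and -0.49 to -0.04 under nandrolone and -1.10 to -0.62 under vehicle at day 7. None of them passed on average (limma), 2 had an unadjusted p under 0.05, and Lep and Cidec were below the filter. Macrophage markers, all 6 tested, scored -0.34 to 0.36 at day 35 and -0.31 to 1.26 at day 7 under nandrolone, where the days overlapped, and -0.57 to -0.43 at day 35 and 0.14 to 0.48 at day 7 under vehicle, where they did not. Of the 6, 1 (Csf1r) fell on average (limma, adjusted p = 0.0486). On average 1 of 6 tested fibroblast markers rose, and none of 5 endothelial or 7 smooth muscle and pericyte markers passed (limma), 1 of these 12 having an unadjusted p under 0.05. The highest Schwann cell and adipocyte scores were both on nandrolone day 35 replicate 3. Without that array 8 of the 16 member probe sets again rose on average. The part of the other cells in the members' results was not tested.

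The genes nearest to a member in pattern were found by the root mean square difference of gene-centred log2 values over the 12 arrays, among the 10411 tested genes that are not members. Nearest to Per2 were Neu2, a sialidase, at 0.31 and the myelin enzyme Cnp at 0.34, where the Per2 profile itself has a root mean square of 1.00. Per3 had Nfkbia, an inhibitor of NF-kappaB, at 0.45 and Nars2 at 0.48, against 1.04 for Per3. Bhlhe41 had Pdlim2 at 0.26 and the synaptic laminin Lamb2 at 0.29, against 0.75, and Dbp had Pdlim2 at 0.16 and Pkp4 at 0.26, against 0.71. To the mean of the 10 genes the nearest were C5h1orf216, Kat6b, Pkp4, Sspn and Sec22c, at 0.14 to 0.17 against 0.56.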

How the data were processed

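Biotin-labelled RNA of gastrocnemius muscle from 12 rats was hybridised to one-colour Affymetrix arrays, 1 per sample, in 4 groups of 3 taken from the sample titles. The values the authors deposited are linear signal intensities per probe set, made with MAS5 per the submitters' processing notes; its version and scaling are not given in the sources used here. Another deposited file, with 12 columns named by number, was not used, since no key ties them to samples. The members and gene lists were chosen with earlier results of these data known.

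After 57 control probe sets were left out, 16 was added, log2 taken and arrays quantile normalised. Probe sets in the lowest 40% by mean signal (below 5.56 log2) were left out. Symbols came from the platform annotation, updated through the RefSeq genes of GRCr8; 20826 probe sets name 1 gene, 436 several and 9780 none. The model, fitted with limma 3.58.1 in R 4.3.3 (and data.table version 1.17.8 for reading), had 4 group means, an intensity trend and 8 residual degrees of freedom, and 7 contrasts were tested (two-sided), p-values being adjusted over the 18625 probe sets by Benjamini and Hochberg. The fit was tested on simulated data with known changes. The number of arrays limits the precision, and the smallest p of an exact permutation test with 3 arrays a side is 0.1. No test compared the probe sets of 1 gene with those of another, beyond differences within an array.

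Every member was named. A gene is represented by its brightest tested probe set. Of other genes, up to 3 a list were named by smallest p, and 2 (5 for the members' mean) by nearness of pattern. Equal replicate numbers were checked for pairing by correlating group-centred values: between nandrolone day 35 and nandrolone day 7 r was 0.162, 0.265 and 0.416, all over 0.1, and no other pair of groups had all 3 over 0.1, so the blocked value stands beside that comparison. Alternatives were pseudocounts of 1 and 64, no filter and a 60% filter, the deposited scale, median centring, no trend, array weights, the replicate block, a fit of only the groups compared, and leaving out each array. Chosen after seeing the data was a shared spread without nandrolone day 35 replicate 3.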

Additional observations from a re-analysis of the deposited data

How the results depend on the processing

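Over 1283 values of single genes under alternatives, 1248 kept their side of the threshold, 29 lost a call and 6 gained one. Among the 1248 were 59 uncalled values that changed sign, and no called value did. Averaged over treatments, Per2, Per3, Nr1d2, Dbp, Tef and Bhlhe41 kept their calls in 21 of 21 alternatives, and 8 member probe sets rose at the main setting, 7 to 9 on leaving out 1 array. Under nandrolone, the 3 calls became 0 on the deposited scale, 1 with median centring, 1 without the intensity trend, 0 with only the 2 groups fitted, and 0 to 4 on leaving out 1 array. Per2 kept its call there in 11 of 16, Nr1d2 in 8 and Bhlhe41 in 7, and the causes were not tested. Under vehicle, Per2, Per3, Dbp and Bhlhe41 kept theirs in 17 of 17 and Nr1d2 in 16, losing it on the deposited scale, with 5 member probe sets called on leaving out any 1 vehicle array, against 6. With the replicate block, 4 member probe sets were called under nandrolone (Dbp added), 6 under vehicle and 9 on average (Per1 added), of 128, 1294 and 2626 over all probe sets. Nandrolone against vehicle and the interaction gave 0 member calls under every alternative run.

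Counts over all probe sets also moved with the setting. Under nandrolone 126 were called (51 higher, 75 lower), against 15 on the deposited scale (15 higher, 0 lower), 106 with median centring (32 higher, 74 lower), 293 with weights, 73 without a filter, 59 without the trend, 0 with only those groups, and 0 to 263 on leaving out 1 array. Under vehicle 1045 were called (641 higher, 404 lower), against 192 on the deposited scale (148 higher, 44 lower), 914 with median centring (618 higher, 296 lower), 5274 with array weights, 2544 with only those groups, 2041 with the shared spread without nandrolone day 35 replicate 3, and 178 to 974 on leaving out 1 array. Averaged over treatments 2338 were called, against 953 on the deposited scale (670 higher, 283 lower), 4570 with weights, and 1357 to 2678 on leaving out 1 array. Array weights gave 49 calls for nandrolone at day 35 and 4 averaged over days, where the main setting gave 0.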
